A study of Mus musculus with 36 samples.

Results

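The nuclear genes for the subunits of the 5 oxidative phosphorylation complexes were examined in cerebellum and hippocampus of mice lacking 1 or both copies of *Pogz* in the nervous system. Genes were chosen by symbol (the Nduf, Sdh, Uqcr, Cox and Atp5 series) and were kept when they were above 1 CPM (counts scaled to a common library total) in at least 6 libraries of each tissue. Of 24421 genes listed, 82 matched and 78 were kept: 34 in complex I, 4 in complex II, 8 in complex III, 15 in complex IV and 17 in complex V. *Ndufa4* and *Ndufa4l2* were counted with complex IV. *Cox7a2l*, *Atp5s* and *Atp5sl* were placed by symbol alone and are not established here as subunits. In RefSeq *Atp5s* and *Atp5sl* are named *Dmac2l* and *Dmac2*.

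All mice were adult C57Bl/6 littermates, and cerebellum and hippocampus were taken from 18 of them, with 3 males and 3 females per genotype. Controls carried floxed *Pogz* (Pogzfl/fl) and no Cre. The cKO+/- mice were NesCre/+; Pogzfl/+ and the cKO-/- mice were NesCre/+; Pogzfl/fl, so that Cre under the *Nestin* promoter removed exons 13−19 in the central and peripheral nervous system of the mutants and no control carried Cre. RNA came from whole dissected tissue, in which fewer cells of a type and less RNA per cell cannot be told apart.

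Oxidative phosphorylation passes electrons from NADH (complex I) and succinate (complex II) through complexes III and IV to oxygen, and the proton gradient built on the way drives ATP synthase (complex V). Neurons depend on it to restore ion gradients after firing. Most subunits are encoded in the nucleus, several of them as ubiquitous and tissue-restricted isoforms, and a few core subunits are encoded in mitochondrial DNA. The mitochondrially encoded subunits were not analysed here.

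The libraries held 21421850 to 32544929 counts in cerebellum and 17609321 to 45544188 in hippocampus, and the members took 0.923% to 1.33% and 0.817% to 0.934% of them. The last range leaves out hippocampal library Sample_1160, where the members took 2.33%. *Pogz* itself fell per allele lost in cerebellum (log2 −0.30 ± 0.046 SE, adjusted p = 0.000356) and in hippocampus (log2 −0.28 ± 0.020 SE, adjusted p = 1.79e-07; edgeR's quasi-likelihood F test, p adjusted by Benjamini-Hochberg over all genes tested, as for every adjusted p given here), its counts including exons outside the deleted stretch. Hippocampal library Sample_1160, from a cKO-/- mouse, stood apart from the other 17 and was kept out of the comparisons except where named. Summed markers of cerebellar neurons were 6766 to 8698 CPM in control cerebellum and 185 to 591 CPM in control hippocampus, the highest being mouse Sample_1129. Summed choroid plexus markers were above 1000 CPM in 3 cerebellar libraries (mice Sample_933, Sample_936 and Sample_1433) and 4 hippocampal libraries (mice Sample_1129, Sample_1170, Sample_1219 and Sample_1385), against 15.9 to 690 CPM in all others.

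As a group the members were short and abundant. Their median length in the tables was 708 bases against 3060 for the 13587 genes tested in both tissues, and 51 of 78 were under 1000 bases (65.4% against 5.96%). Their median level per length was 106 CPM per kilobase in control cerebellum and 92.0 in control hippocampus, where all tested genes had medians of 10.2 and 10.2. CPM here is scaled by trimmed mean of M-values (TMM) factors over all 36 libraries. *Atp5b*, the catalytic beta subunit of ATP synthase, had the highest level per length of complex V (849 CPM per kilobase in control cerebellum and 645 in control hippocampus). In the other complexes the highest were *Cox8a* (545 and 588), *Uqcrh*, the hinge protein of complex III (289 and 214), *Ndufb9* (202 and 235) and *Sdha*, the flavoprotein of succinate dehydrogenase (183 and 152).

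At the other end of each complex were *Atp5g2* (1.42 and 2.31 CPM per kilobase), *Ndufa4l2* (2.45 and 1.87), *Ndufb4* (9.45 and 9.06), *Uqcrb* (49.0 and 37.4) and *Sdhd* (87.8 and 67.5). Some of these counts were uncertain. Every 43-base stretch, the length of a read, of the annotated *Atp5g2* transcripts also occurred elsewhere in the genome. So did 67.1% of those of *Uqcrb* and 41.8% of those of *Ndufb4*. The annotated *Ndufb4* transcripts held 929 stretches against a counted length of 454 bases, so its share within the counted exons was not determined. The exons of *Ndufa4l2* overlapped *Shmt2* on the other strand. Of the 4 matched genes not kept, *Cox8c* had no count in any library, *Ndufs5* had 0 to 4 counts, *Cox8b* passed 1 CPM in 2 libraries of each tissue, and *Cox7b2* passed in 12 cerebellar libraries and 1 hippocampal library. For *Ndufs5*, 395 of 896 stretches (44.1%) occurred elsewhere, against a counted length of 509 bases. Its low counts therefore do not show that the gene was silent.

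**Figure D1:**
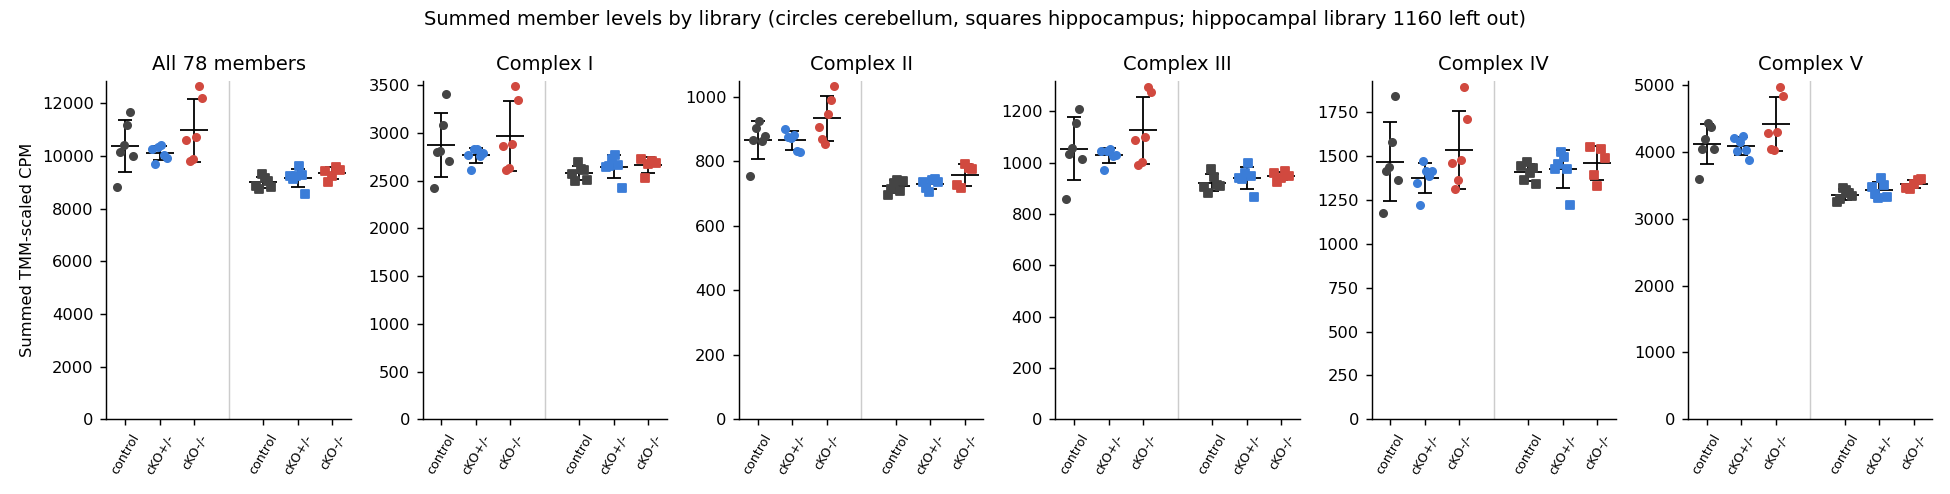
Summed TMM-scaled CPM (y axis) of all members and of each complex in every library, by genotype (x axis) in cerebellum (circles) and hippocampus (squares), with the mean and SD in black and hippocampal library Sample_1160 left out. Cerebellar control and cKO-/- libraries ranged from 8809 to 12636 CPM over all members, and hippocampal libraries from 8558 to 9607.

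Between control tissues, more members were lower than higher in hippocampus. Summed over the 78 genes, the 6 control cerebella had 10369 ± 998 CPM (SD, n = 6; 8809 to 11682) and the 6 control hippocampi 8993 ± 220 (8742 to 9323), so the ranges overlapped at mouse Sample_1129, the lowest cerebellum. With all 6 tissue-by-genotype groups in 1 edgeR quasi-likelihood fit, 36 members were lower and 9 higher in hippocampus, where 37.1% and 34.7% of the 13587 genes tested were called lower and higher. The members' median log2 difference was −0.15, against −0.03 over all genes. With library totals alone in place of TMM factors, which moved the median of all genes to −0.12, the split was 46 lower and 3 higher, so the calls of higher members depended on the scaling.

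Lower members outnumbered higher ones in every complex: 13 and 4 of 34 in complex I, 3 and 0 of 4 in complex II, 4 and 1 of 8 in complex III, 6 and 2 of 15 in complex IV, and 10 and 2 of 17 in complex V. Of all genes tested, 37.1% were called lower and 34.7% higher. In complexes I and IV the share of lower members was near that of all genes, and the share of higher members was below it. In complex II, *Sdhc* (log2 −0.47 ± 0.061 SE, adjusted p = 4e-08) and *Sdhd* (−0.38 ± 0.054, adjusted p = 1.61e-07), which anchor the enzyme in the inner membrane, and *Sdha* (−0.27 ± 0.052, adjusted p = 2.24e-05) were lower in hippocampus. The iron-sulfur subunit *Sdhb* had 116 ± 10.9 CPM in control cerebellum and 120.0 ± 4.67 in control hippocampus (log2 0.05, 95% interval −0.10 to 0.20). The other members of the complex were thus lower beside an *Sdhb* difference whose interval spanned 0. In complex I, *Ndufc2*, an accessory subunit of the membrane arm, had 75.0 to 114 CPM (median 97.3) in control cerebellum and 59.9 to 66.8 (median 60.6) in control hippocampus, without overlap (log2 −0.66 ± 0.077, adjusted p = 3.44e-09). *Atp5b* was lower by 0.40 on the log2 scale (fold 0.759, adjusted p = 1.3e-08), with 1407 to 1699 CPM in control cerebellum and 1161 to 1250 in control hippocampus. *Uqcrc2*, a core protein of complex III, was lower as well (−0.33 ± 0.060, adjusted p = 1.17e-05), and its exons overlapped *Pdzd9* on the other strand.

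The members that were higher in hippocampus included *Ndufa10* (log2 0.27 ± 0.054, adjusted p = 4.93e-05; 104 to 120.2 CPM against 120.3 to 140), *Cox6a1* (0.28 ± 0.091, adjusted p = 0.00637), *Cox7a2l* (0.30 ± 0.074, adjusted p = 0.000635), *Uqcr11* (0.33 ± 0.11, adjusted p = 0.00781) and *Atp5d*, the delta subunit of ATP synthase (0.24 ± 0.096, adjusted p = 0.0257). Of these only *Ndufa10* had groups that did not overlap. Without the 4 animals whose hippocampal library held choroid plexus markers, 3 members were higher and 44 lower, and *Cox6a1*, *Uqcr11* and *Atp5d* lost their calls (adjusted p = 0.139, 0.178 and 0.359).

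The widest differences between tissues lay among the isoforms of complex IV and complex V. *Cox7a1*, the isoform best known from heart and skeletal muscle, had 4.26 to 5.26 CPM (median 4.58) in control cerebellum and 0.886 to 2.43 (median 1.21) in control hippocampus. The groups did not overlap, and hippocampus was lower by 1.75 on the log2 scale (SE 0.18, fold 0.296, adjusted p = 2.79e-10). *Cox7a2*, its ubiquitous counterpart, differed less (−0.21 ± 0.087, adjusted p = 0.0311; 124 ± 19.7 against 107 ± 6.76 CPM). Per length, *Cox7a2* stood at 164 and 142 CPM per kilobase and *Cox7a1* at 12.8 and 3.85, so *Cox7a2* was the more abundant isoform in both tissues.

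*Cox6b2*, the isoform of subunit VIb best known from testis, showed the same order of tissues. It had 4.36 to 7.24 CPM (median 5.61) in control cerebellum and 1.07 to 4.60 (median 1.52) in control hippocampus, where mouse Sample_1129 overlapped the cerebellar range (log2 −1.41 ± 0.27, fold 0.377, adjusted p = 1.98e-05). *Cox6b1*, the ubiquitous isoform, was at 112 ± 18.3 and 107 ± 7.42 CPM (log2 −0.07, 95% interval −0.25 to 0.11). The 3 highest hippocampal *Cox6b2* values outside library Sample_1160 came from control mice Sample_1129 (4.60 CPM) and Sample_1170 (3.25) and cKO-/- mouse Sample_1385 (2.45), which also had the 3 highest choroid plexus sums (5122, 2498 and 5208 CPM) and the 3 highest *Cox7a1* values (2.43, 1.78 and 1.99). Mouse Sample_1129 also held the highest summed cerebellar neuron markers. Without the 4 animals with choroid plexus markers in hippocampus, the difference between control tissues was −2.22 for *Cox6b2* and −2.15 for *Cox7a1*.

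The 3 genes for subunit c of the ATP synthase rotor encode the same mature protein and differ in their import sequence. *Atp5g3* had the highest counted level per length (407 CPM per kilobase in control cerebellum and 283 in control hippocampus). *Atp5g1* (21.1 and 23.3) and *Atp5g2* (1.42 and 2.31) followed. Of the read-length stretches of *Atp5g3* 0% occurred elsewhere in the genome, against 29.4% for *Atp5g1* and 100% for *Atp5g2*. The annotated *Atp5g1* transcripts held 4888 stretches against a counted length of 868 bases, so its share within the counted exons was not determined. How reads with several positions were counted is not given, so their part in this order was not tested. *Atp5g3* was lower in hippocampus (log2 −0.52 ± 0.072, adjusted p = 1.14e-07), with 244 to 353 CPM against 195 to 211. *Atp5g1* differed by 0.14 (95% interval −0.06 to 0.34), and *Atp5g2*, whose counts could come from near copies, was higher (0.70 ± 0.21, adjusted p = 0.00331). Among the remaining isoform families, *Ndufa4* was lower in hippocampus (−0.48 ± 0.080, adjusted p = 2.57e-06) and *Ndufa4l2* had a difference of −0.39 (adjusted p = 0.0578). *Cox7b* was lower as well (−0.25 ± 0.092, adjusted p = 0.0162). *Cox8a* had a difference of 0.11 (95% interval −0.11 to 0.33). *Cox6a2*, another heart and muscle isoform, varied from 0.111 to 2.84 CPM among control cerebella and had a difference of 0.96 (95% interval −0.07 to 1.99); its exons overlapped *Itgad* on the other strand.

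**Figure D2:**
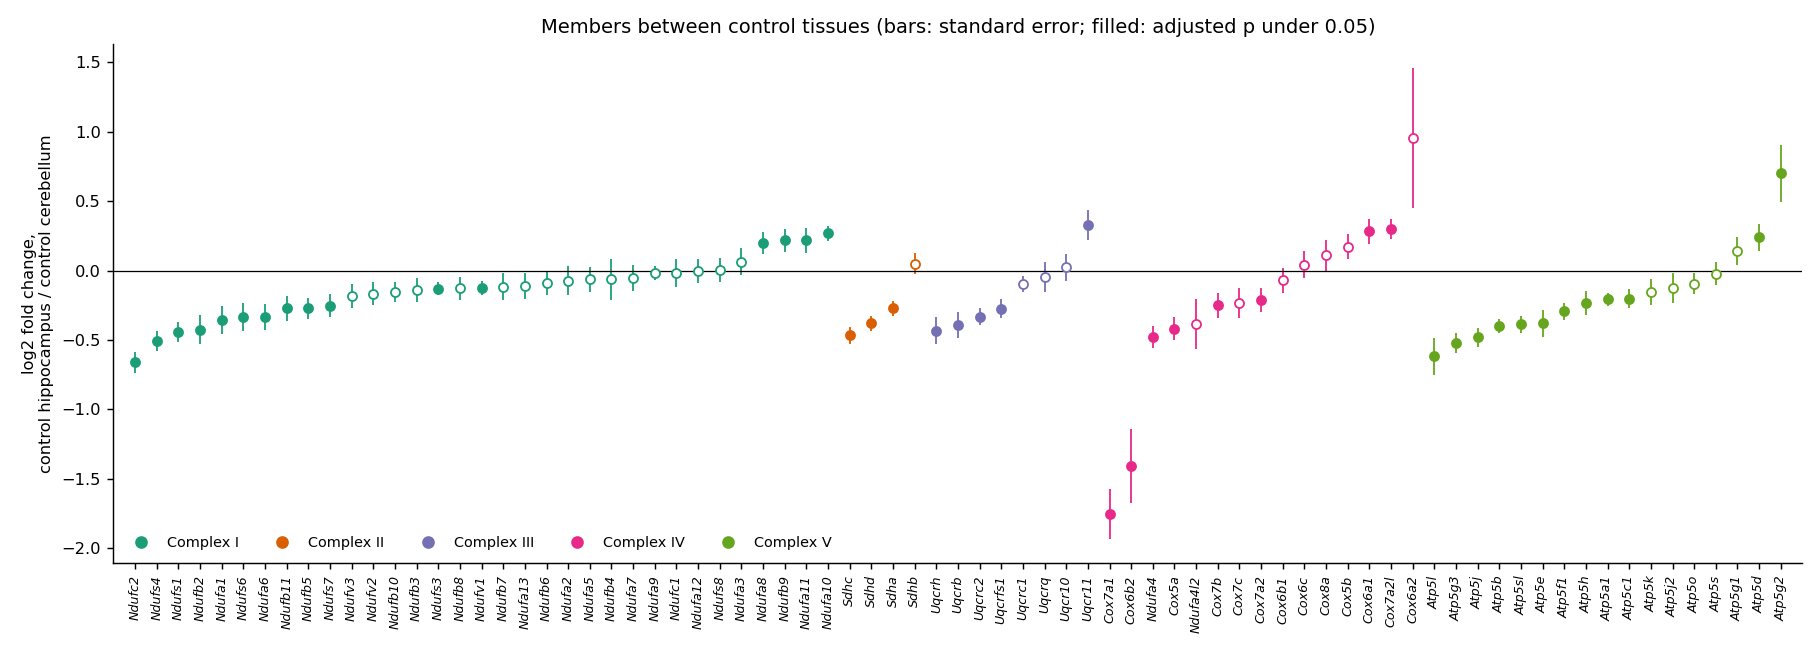
Log2 fold change of each member between control hippocampus and control cerebellum (y axis; bars are SE), grouped by complex and sorted within it, filled where the adjusted p was under 0.05. *Cox7a1* (−1.75) and *Cox6b2* (−1.41) lie lowest, and most filled points lie below 0; 1 member is not shown.

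Across genotypes the members as a whole differed little in the cerebellum. Summed over the 78 genes, controls had 10369 ± 998 CPM (SD, n = 6), cKO+/- mice 10114 ± 277 (n = 6) and cKO-/- mice 10969 ± 1184 (n = 6), and the differences between means were smaller than the SD of the control group. Per *Pogz* allele lost (the slope over 2, 1 and 0 intact alleles, with sex in the model), no member rose and 1 fell, *Cox6b2*, where 7.11% of the 14027 genes tested rose and 6.55% fell. DESeq2 also called 0 members higher and 1 lower. In the edgeR quasi-likelihood test 2 of 78 members had an unadjusted p under 0.05, where 4233 of the 14027 genes did. For 76 of 78 members the 95% interval of the slope lay within a 1.25-fold change in either direction (97.4%, against 77.5% of all genes tested). The exceptions were *Cox6b2* and the weakly counted *Cox6a2* (−0.58 to 0.85).

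By complex, the median log2 slope was 0.02 in complex I, 0.04 in complex II, 0.03 in complex III, 0.03 in complex IV and 0.02 in complex V. Of the 78 slopes 59 were above 0 (75.6%, against 50.4% of all genes). With genotype as a factor, 59 members were fitted above 0 in cKO-/- (median 0.05) and 9 in cKO+/- (median −0.08). Leaving out 1 mouse at a time gave a median slope from −0.00410 (without cKO-/- mouse Sample_1379) to 0.06 (without control mouse Sample_1190).

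Mice Sample_1190, Sample_1379 and Sample_1385 had the 3 highest member sums in cerebellum (11682, 12636 and 12189 CPM) and also the 3 highest sums of cytosolic ribosomal protein genes (3438, 3335 and 3206 CPM, against 2409 to 2869 in the other 15). Complex II had the clearest offset of a sum, with 855 to 1032 CPM in cKO-/- cerebella (median 926) and 755 to 926 in controls (median 873), and the ranges overlapped. None of its 4 genes was called by edgeR (smallest adjusted p = 0.192, for *Sdhc*), and none had an unadjusted p under 0.05 or a DESeq2 call.

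*Cox6b2* was the single member whose 6 cKO-/- cerebella all lay below the 6 controls, where 1.9% of all genes did so; 0 members had all cKO-/- cerebella above the controls, where 2.67% of genes did. The controls had 4.36 to 7.24 CPM (median 5.61), the cKO+/- mice 3.87 to 5.62 (median 4.44) and the cKO-/- mice 2.49 to 4.03 (median 3.31). The cKO+/- values lay between and overlapped both other groups. With each allele lost *Cox6b2* dropped by 0.39 in log2 units (SE 0.074, fold 0.765, adjusted p = 0.00255), and the call was kept in 27 of 28 alternatives, being lost only for cKO+/- against control (log2 −0.31; adjusted p over the alternatives from 1.93e-05 to 0.422). *Cox6b1* had a slope of 0.03 (95% interval −0.08 to 0.15), with 98.8 to 142 CPM in cKO-/- mice and 88.2 to 141 in controls. *Cox6b2* lies on mouse chromosome 7 from 4751792 to 4753094 on the minus strand, and none of its 43-base stretches occurred elsewhere.

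In the same cerebella, 2 of 8 oligodendrocyte, 4 of 8 astrocyte, 3 of 8 microglial and 5 of 8 meningeal fibroblast markers rose per allele lost, and 1 of 8 endothelial markers fell. Summed oligodendrocyte markers ranged from 3812 to 5799 CPM in controls and from 4284 to 9294 in cKO-/- mice. Summed cerebellar neuron markers ranged from 6766 to 8698 and from 5736 to 8682 CPM, with none of the 8 called by edgeR and 1 at an unadjusted p under 0.05. Their part in the *Cox6b2* difference was not tested. Without the 3 cerebella that held choroid plexus markers, the *Cox6b2* slope was −0.38 (adjusted p = 0.00668).

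The 120 bases before the annotated start of *Cox6b2* are shown with those of *Cox6b1*, the isoform whose slope did not pass the test (RefSeq, GRCm38.p6, both on the minus strand of chromosome 7; chr7:4753095-4753214 and chr7:30626115-30626234). Capitals mark letters of 3 motifs searched on both strands over the 250 bases before and 50 after each start: GCGCANGCG (NRF1), CCGGAAG (ETS factors such as GABPA) and AANATGGCG (YY1), named for factors known to act at genes of the respiratory chain.
Cox6b2: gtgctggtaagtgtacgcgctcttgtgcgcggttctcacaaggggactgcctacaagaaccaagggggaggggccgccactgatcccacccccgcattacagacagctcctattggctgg
Cox6b1: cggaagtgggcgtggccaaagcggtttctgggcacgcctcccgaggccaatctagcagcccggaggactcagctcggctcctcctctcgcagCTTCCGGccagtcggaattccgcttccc

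The ETS letters were found before *Cox6b1*, and none of the 3 motifs in the *Cox6b2* window. Of the 78 members 66 had windows, and 28.8% of them held the NRF1 letters, 24.2% the ETS letters and 16.7% the YY1 letters, against 7.03%, 9.93% and 2.76% of 27025 genes with windows. A match describes letters in a window and no binding.

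*Cox7b2*, the paralog of the ubiquitous *Cox7b*, was tested in the cerebellar table alone and is given by itself because it missed the level required in hippocampus. Its cerebellar libraries held 13 to 94 counts. The controls had 0.481 to 1.68 CPM (median 1.21), the cKO+/- mice 0.536 to 1.16 (median 0.707) and the cKO-/- mice 2.22 to 3.17 (median 2.57). All 6 cKO-/- libraries lay above all 12 others. Of all genes tested in cerebellum, 2.67% had all cKO-/- libraries above all controls. The fitted slope was 0.59 on the log2 scale per allele lost (SE 0.18, adjusted p = 0.0368), although the cKO+/- median lay below that of the controls. The alternatives were not examined for this gene. It was above 1 CPM in 12 cerebellar libraries, among them all 6 in which it was highest, where the filter required 6. *Cox7b* itself had a slope of 0.03 (95% interval −0.09 to 0.15).

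**Figure D3:**
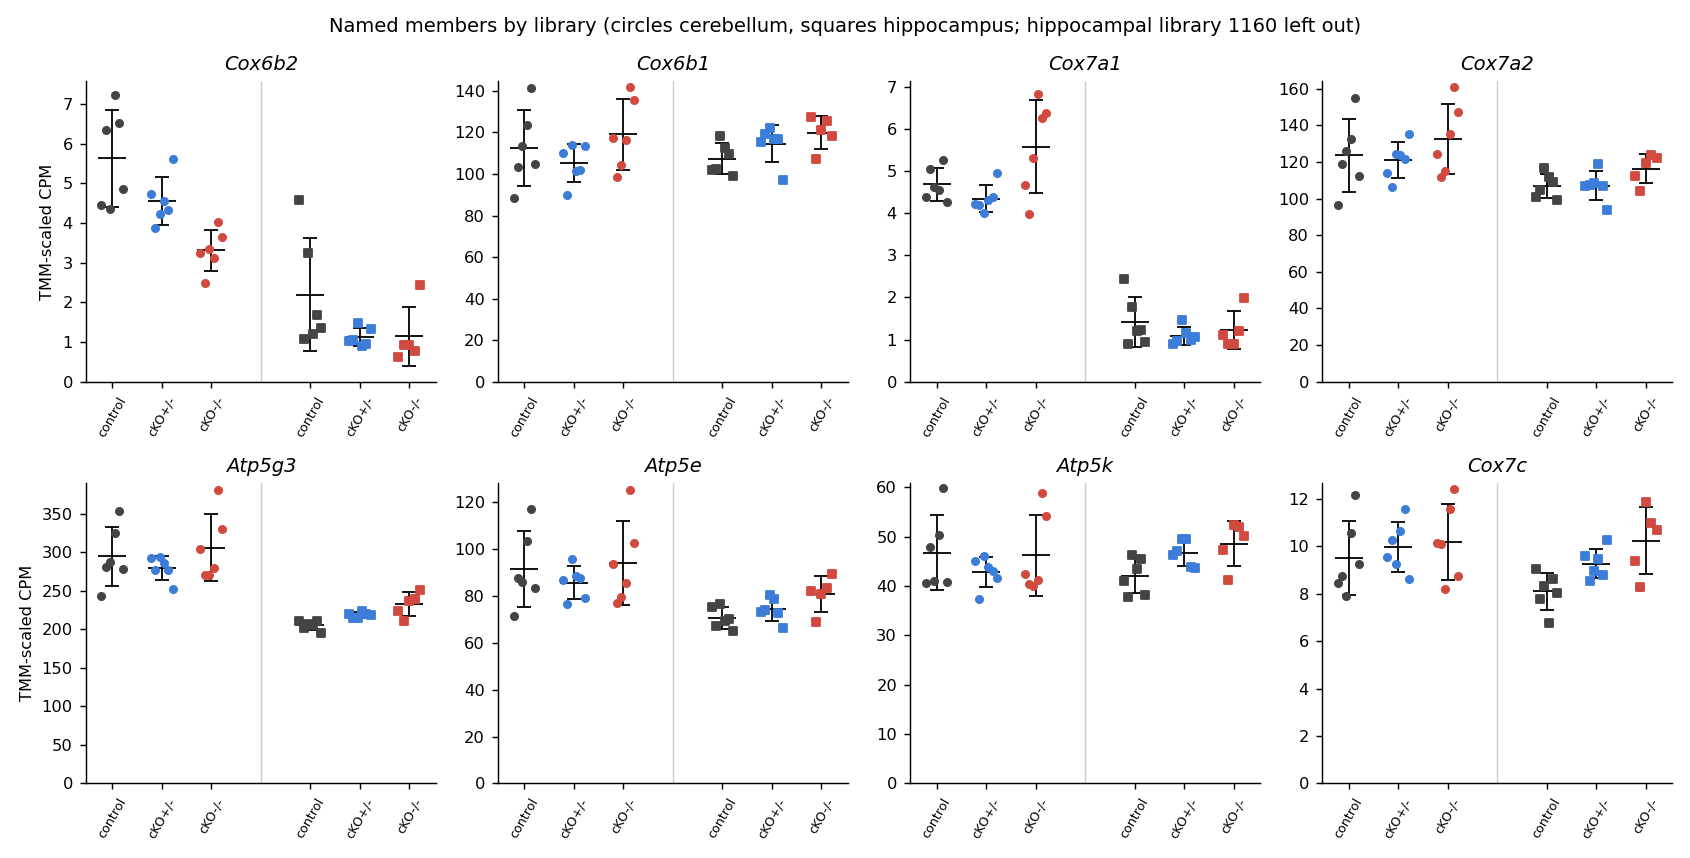
TMM-scaled CPM (y axis) of 8 members in every library, by genotype (x axis) in cerebellum (circles) and hippocampus (squares), with the mean and SD in black and hippocampal library Sample_1160 left out. Cerebellar *Cox6b2* is at 2.49 to 4.03 CPM in cKO-/- mice and 4.36 to 7.24 in controls, while control and cKO-/- hippocampi overlap in all 8 panels.

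In the hippocampus 4 members rose per allele lost and 0 fell, where 2.09% of the 14339 genes tested rose and 2.35% fell. DESeq2 called 7 higher and 0 lower. In the edgeR quasi-likelihood test 19 of 78 members had an unadjusted p under 0.05, where 2883 of the 14339 genes did. *Atp5g3* (subunit c), *Atp5e* (the epsilon subunit of the central stalk) and *Atp5k* (subunit e of the membrane part) belong to ATP synthase, and *Cox7c* is a ubiquitous subunit of complex IV. All 4 changes were small, between 1.06-fold and 1.12-fold per allele, and no member had all 5 cKO-/- hippocampi above the controls or all below them, where 1.53% and 2.12% of genes did.

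*Atp5g3* had 195 to 211 CPM (median 206) in controls and 214 to 224 (median 219) in cKO+/- mice, which did not overlap. The 5 cKO-/- mice had 223 (mouse Sample_936), 211 (Sample_1219), 237 (Sample_1371), 240 (Sample_1379) and 251 (Sample_1385), of which mouse Sample_1219 lay among the controls. The slope was 0.09 (SE 0.020, fold 1.06, adjusted p = 0.0159), and the call was kept in 23 of 28 alternatives (adjusted p from 0.000273 to 0.528). *Atp5e* had 65.0 to 76.6 CPM (median 69.6) in controls, 66.2 to 80.6 (median 73.6) in cKO+/- mice, and 82.2, 68.7, 80.7, 83.5 and 89.5 in cKO-/- mice Sample_936, Sample_1219, Sample_1371, Sample_1379 and Sample_1385. Mouse Sample_1219 was again the lowest and 4 of 5 lay above every control (slope 0.10 ± 0.027, fold 1.07, adjusted p = 0.0318).

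*Atp5k* had 37.9 to 46.3 CPM (median 42.3) in controls and 43.8 to 49.6 (median 46.6) in cKO+/- mice. In cKO-/- mice it had 47.3 (Sample_936), 41.2 (Sample_1219), 52.4 (Sample_1371), 52.1 (Sample_1379) and 50.1 (Sample_1385), so that mouse Sample_1219 alone was within the control range (slope 0.11 ± 0.030, fold 1.08, adjusted p = 0.0480). *Cox7c* had 6.78 to 9.05 CPM (median 8.16) in controls, 8.54 to 10.2 (median 9.21) in cKO+/- mice, and 9.37, 8.28, 11.9, 11.0 and 10.7 in the same 5 cKO-/- mice (slope 0.17 ± 0.047, fold 1.12, adjusted p = 0.0489). The last 2 calls stood close to the threshold and were kept in 5 and 8 of 28 alternatives (adjusted p up to 0.781 and 0.873), and that of *Atp5e* in 16. Of the 43-base stretches of the annotated *Cox7c* transcripts 30.6% occurred elsewhere. These transcripts held 1169 stretches against a counted length of 449 bases, so the share within the counted exons was not determined. Without mouse Sample_1385 the count of members called was 0, and without mouse Sample_1219 it was 7.

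The 120 bases before the starts of the 4 genes are shown because these were the members that rose (RefSeq, GRCm38.p6, minus strands; chr2:73911327-73911446, chr2:174464102-174464221, chr5:108434400-108434519 and chr13:86046796-86046915; capitals as above).
Atp5g3: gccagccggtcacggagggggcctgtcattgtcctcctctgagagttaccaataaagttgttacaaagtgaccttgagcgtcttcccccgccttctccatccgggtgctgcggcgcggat
Atp5e: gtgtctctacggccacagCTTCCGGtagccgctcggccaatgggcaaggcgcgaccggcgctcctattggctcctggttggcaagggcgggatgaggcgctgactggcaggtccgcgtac
Atp5k: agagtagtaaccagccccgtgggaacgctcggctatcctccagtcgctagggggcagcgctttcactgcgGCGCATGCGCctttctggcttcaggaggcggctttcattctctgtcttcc
Cox7c: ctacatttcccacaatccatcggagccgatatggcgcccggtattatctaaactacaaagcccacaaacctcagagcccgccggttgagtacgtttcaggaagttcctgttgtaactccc

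*Atp5k* held the NRF1 letters on both strands and *Atp5e* the ETS letters in this stretch. Within the 50 bases after the start, which are not printed, *Atp5g3* held NRF1 letters and *Atp5k* ETS letters, and *Cox7c* held none of the 3 motifs.

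The other members did not pass the test in hippocampus, and most of their slopes lay slightly above 0. Of the 78 slopes 60 were above 0 (76.9%, against 51.1% of all genes), with a median of 0.03. By complex, 28 of 34 slopes were above 0 in complex I, 4 of 4 in complex II, 5 of 8 in complex III, 9 of 15 in complex IV and 14 of 17 in complex V. For 76 of 78 members the 95% interval lay within a 1.25-fold change per allele (97.4%, against 87.3% of all genes tested). The exceptions were *Atp5l* (slope 0.23, 0.06 to 0.39, adjusted p = 0.116, 89.55% of its 43-base stretches also elsewhere) and *Cox6b2*. Hippocampal *Cox6b2* had 1.07 to 4.60 CPM in controls (median 1.52), 0.914 to 1.49 in cKO+/- mice (median 1.05), and 0.631, 0.933, 0.927, 0.779 and 2.45 in cKO-/- mice Sample_936, Sample_1219, Sample_1371, Sample_1379 and Sample_1385. Its slope was −0.45 (SE 0.17, adjusted p = 0.156), and −0.37 (adjusted p = 0.158) without the 4 libraries with choroid plexus markers.

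Summed over all members, hippocampal controls had 8993 ± 220 CPM (SD, n = 6), cKO+/- mice 9167 ± 342 (n = 6) and cKO-/- mice 9345 ± 222 (n = 5), and the ranges overlapped (8742 to 9323, 8558 to 9607 and 9005 to 9562). In these libraries 3 of 8 markers of hippocampal neurons fell per allele lost, and their sums ranged from 713 to 1157 CPM in controls and from 656 to 718 in the 5 cKO-/- mice. In the other direction, 3 of 8 endothelial markers rose, as did 1 of 8 in each of the neuron, astrocyte and meningeal fibroblast lists. The part of these cells in the members' slopes was not tested. Without the 4 hippocampal libraries with choroid plexus markers, 1 member was called, *Cox7c* (0.23, adjusted p = 0.0439), and *Atp5e*, *Atp5k* and *Atp5g3* had slopes of 0.13, 0.14 and 0.10 (adjusted p = 0.0591, 0.0656 and 0.0687). Every control had an animal number between Sample_1129 and Sample_1192, and with a term for mice numbered outside the run from Sample_1120 to Sample_1219 no member was called by edgeR.

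**Figure D4:**
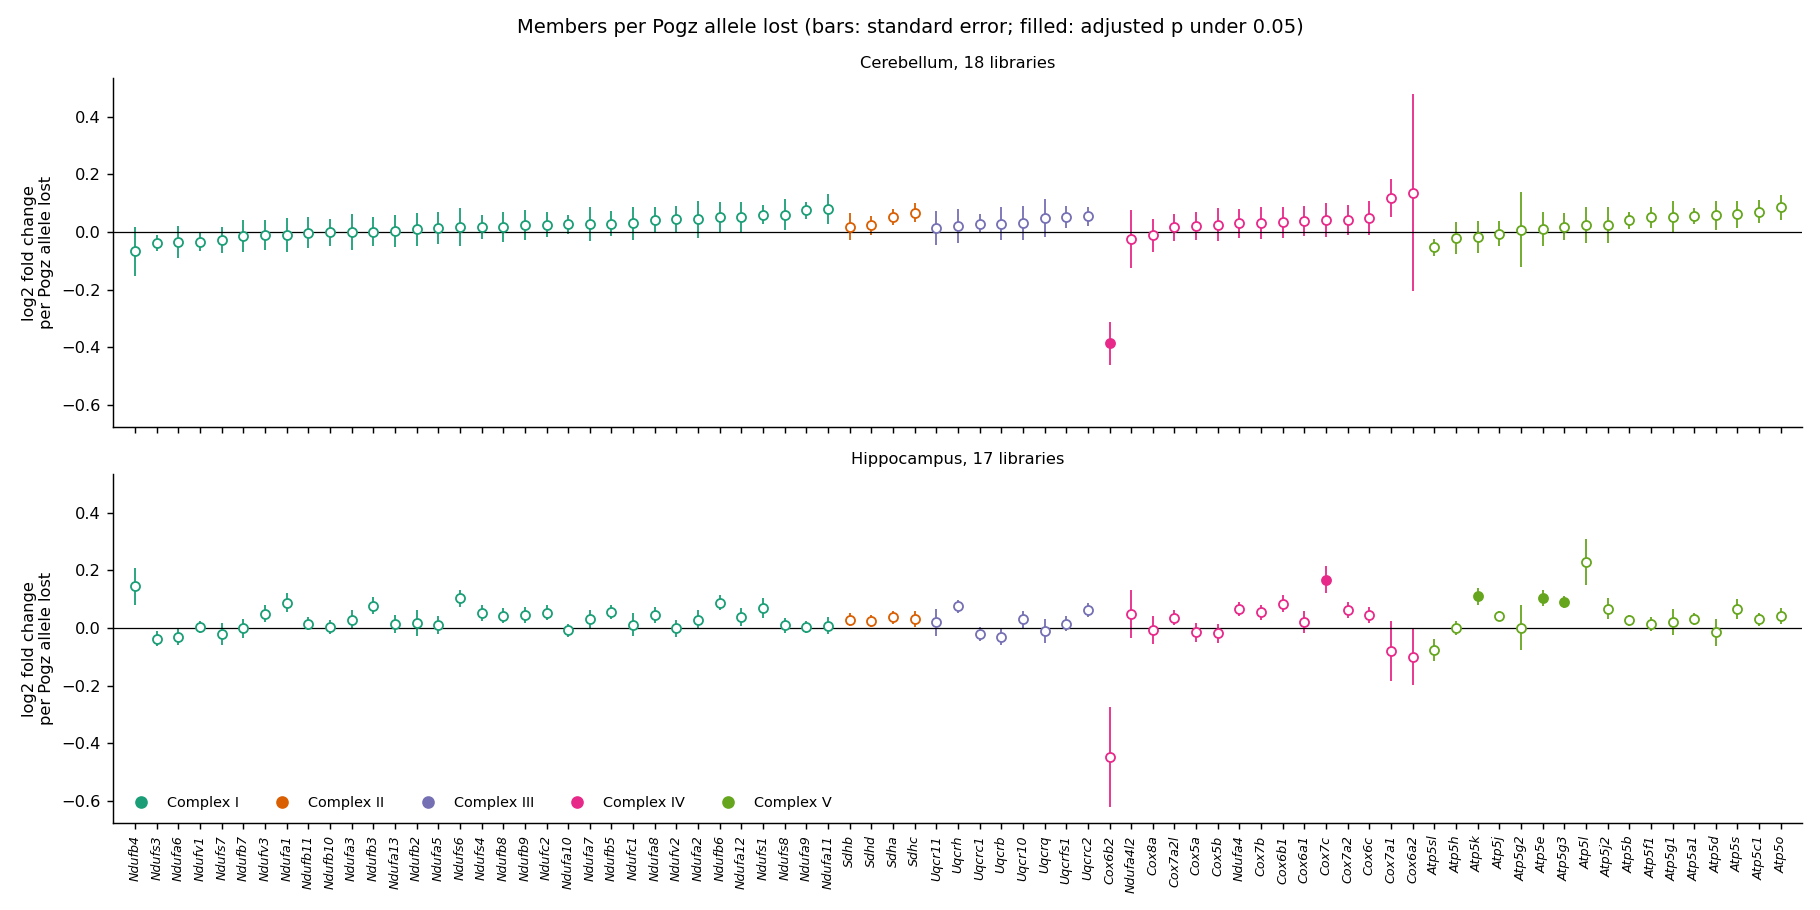
Log2 fold change of each member per *Pogz* allele lost (y axis; bars are SE) in cerebellum (upper panel) and hippocampus (lower panel, 17 libraries), grouped by complex and sorted by the cerebellar value, filled where the adjusted p was under 0.05. The filled points are *Cox6b2* in cerebellum (−0.39) and *Cox7c*, *Atp5k*, *Atp5e* and *Atp5g3* in hippocampus (0.17, 0.11, 0.10 and 0.09); 1 member is not shown.

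No member had an allele effect that differed between tissues, where 1.49% of the 13587 genes tested did (0 of 78 by edgeR with the 2 slopes in 1 fit, 0 by DESeq2, and 1 at an unadjusted p under 0.05). The calls above were therefore not shown to belong to 1 tissue. The smallest edgeR p was that of *Ndufa9*, an accessory subunit of complex I, with a difference of −0.08 between the slopes (SE 0.038, adjusted p = 0.350). Its cerebellar levels were 99.2 to 109 CPM in controls and 106 to 133 in cKO-/- mice, and its hippocampal levels 95.7 to 109 and 99.6 to 108. Next were *Atp5l* (0.20, adjusted p = 0.378), *Ndufb4* (0.20, adjusted p = 0.413), *Atp5k* (0.12, adjusted p = 0.447) and *Cox7a1* (−0.21, adjusted p = 0.466). For *Cox6b2* the slopes differed by −0.07 (95% interval −0.44 to 0.30), and for *Atp5g3* by 0.07 (−0.04 to 0.17).

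Genes around the complexes were tested per allele lost as well. Of all genes tested, 7.11% rose and 6.55% fell in cerebellum, and 2.09% rose and 2.35% fell in hippocampus. Of 8 further subunits that the symbol rule missed, among them *Cox4i1*, *Ndufab1*, *Cyc1* and *Cycs*, 0 were called by edgeR in either tissue (0 and 1 at an unadjusted p under 0.05). Of 47 assembly factors tested, *Cox15*, which makes heme A for complex IV, fell in cerebellum (−0.10 ± 0.029, adjusted p = 0.0323) and *Ndufaf2*, an assembly factor of complex I, rose in hippocampus (0.12 ± 0.030, adjusted p = 0.0305). In the tricarboxylic acid cycle, which supplies NADH and succinate, 3 of 18 genes rose in cerebellum and 0 in hippocampus (2 at an unadjusted p under 0.05). These were *Suclg2* (0.28 ± 0.051, adjusted p = 0.00167), *Pdha1* (0.14 ± 0.032, adjusted p = 0.0113) and *Idh3a* (0.09 ± 0.031, adjusted p = 0.0458). Of 16 glycolysis genes 0 were called in cerebellum (0 at an unadjusted p under 0.05) and 1 in hippocampus, *Gapdh* (0.25 ± 0.069, adjusted p = 0.0445).

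Among 17 regulators of mitochondrial gene expression, *Ppargc1a*, the coactivator PGC-1alpha, rose in cerebellum (0.17 ± 0.054, adjusted p = 0.0421) and *Gabpb1*, a subunit of the ETS factor GABP, fell (−0.14 ± 0.036, adjusted p = 0.0132). Neither was called in hippocampus (adjusted p = 0.498 and 0.0986). Between control tissues these regulators were lower in hippocampus in 12 of 17 and higher in 2. Of all genes tested there, 37.1% were called lower and 34.7% higher. The tricarboxylic acid cycle had 11 lower and 4 higher of 18, glycolysis 3 lower and 7 higher of 16, and cytosolic ribosomal proteins 2 lower and 45 higher of 80, while the 8 further subunits had 4 lower and 1 higher. The members, with 36 lower and 9 higher of 78, had their counts in the same order as the tricarboxylic acid cycle and in the opposite order to glycolysis; a difference between the lists was not tested.

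Hippocampal library Sample_1160 had the members at a median of 3.39 times the median of the other 5 cKO-/- hippocampi. Their sum was 27180 CPM, against 9005 to 9562 in those 5. Of the 78 members 74 lay above all 17 other hippocampal libraries (94.9%) and 0 below, where 37.2% of all genes tested lay above and 36.7% below. The extent differed between complexes, with median ratios of 3.59 in complex I, 1.68 in complex II, 3.93 in complex III, 3.39 in complex IV and 2.51 in complex V. The 4 members that stayed within the range of the others were *Sdha* (ratio 1.04), *Uqcrc2* (0.890), *Cox6b2* (3.32) and *Ndufs1* (0.856), the last named for this after its value was seen.

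Length moved with these ratios. Over all genes tested, the median ratio was 2.80 for genes under 1000 bases, 1.77 for 1000 to 2000 bases, 1.04 for 2000 to 4000 bases and 0.652 for 4000 bases or more. Members of the same lengths had medians of 3.86 under 1000 bases (51 genes), 2.52 for 1000 to 2000 bases (22 genes) and 1.36 at 2000 bases or more (5 genes). The cytosolic ribosomal proteins, with a median length of 706.5 bases, had a median ratio of 3.31, and 80 of 80 lay above all 17 other libraries. The cerebellar library of the same mouse had a member sum of 9819 CPM, next to 9872 to 12636 in the other 5 cKO-/- cerebella.

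With library Sample_1160 in the fit the members' picture per allele lost in hippocampus was another. Then 77 of 78 slopes were above 0 and their median was 0.27 in place of 0.03, yet 0 members were called by edgeR, and 33 had an unadjusted p under 0.05. The library was in neither group of the comparison between control tissues, but entered its scaling factors, sex term and shared spread. In that comparison the members called dropped from 45 to 17. The part of this library's RNA or library preparation in these values was not tested.

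**Figure D5:**
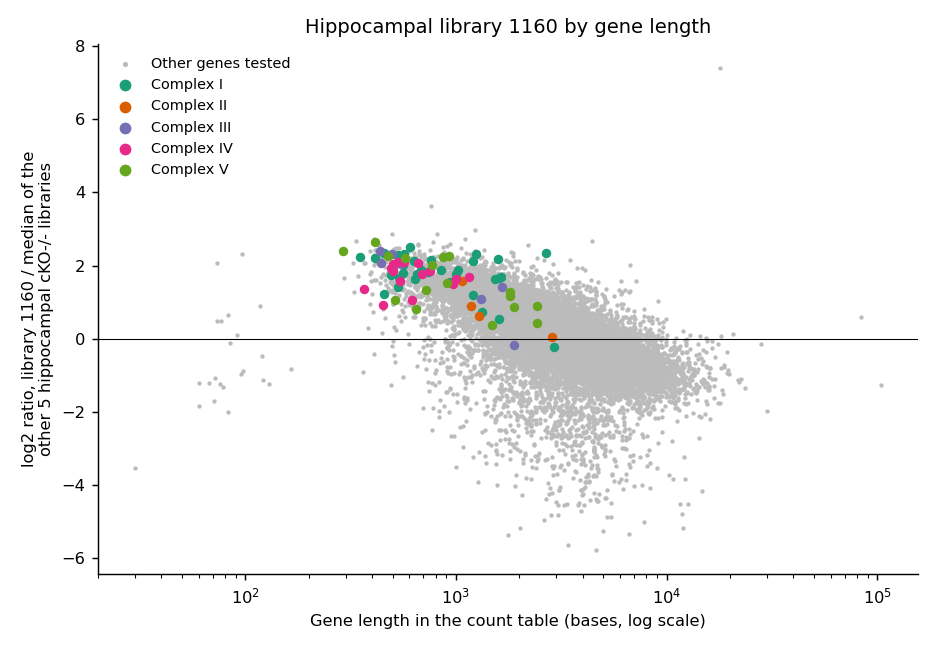
Log2 ratio of each gene in hippocampal library Sample_1160 to the median of the other 5 cKO-/- hippocampi (y axis; CPM + 1) against gene length in bases (x axis, log scale), for the members (coloured by complex) and the other genes tested (grey). Members have a median of 1.76, and genes of 4000 bases or more a median of −0.62.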

How the data were processed

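Poly(A) RNA from cerebellum and hippocampus of 18 mice was sequenced by the study as 43-base paired reads. The deposited tables hold whole-number read counts per gene, 1 column per library, that the authors made from alignments; the submitters' processing notes name STAR (250a) and the mm9 build, although gene positions in both tables are those of GRCm38. Strand and the handling of reads with several positions are not given in the sources used here. The study reports leaving out an outlier RNA sample without naming it. Members and gene lists were chosen with earlier results of these data known.

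Counts were fitted with edgeR 4.0.16 (R 4.3.3; TMM factors, quasi-likelihood test in its earlier form) over genes above 1 CPM in at least 6 libraries of the table, with sex and the number of *Pogz* alleles lost as terms, and with the 6 tissue-by-genotype groups in 1 fit for comparisons between tissues. P-values were adjusted by Benjamini-Hochberg over all genes tested, and a gene was called at an adjusted p under 0.05. Hippocampal library Sample_1160 was left out of the fits, which left 17 hippocampal libraries. It counted in the filter on hippocampal libraries, and in the factors of the hippocampal allele fit but not of the fits between tissues. Levels are CPM scaled by TMM factors over all 36 libraries, and CPM per kilobase uses the gene lengths in the tables. Library depth was 17609321 to 45544188 counts. Within a tissue the replicates are separate animals, and the p-values of the allele fits measure the spread between them. The main fits between tissues took the libraries as independent, although both tissues came from the same mice.

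Cerebellum and hippocampus of the same number came from the same mouse. Over 17 such pairs the deviations from the group means correlated with a median r of 0.204 (−0.154 to 0.438), so a fit with the animal as a block was run beside the comparisons between tissues. Alternatives were other scaling factors, no filter, DESeq2 1.42.0, the bias-adjusted quasi-likelihood form, no sex term and genotype as a factor. Others were a term for animals numbered outside the run from Sample_1120 to Sample_1219, Sample_1160 included, and each animal left out. Libraries with choroid plexus markers were left out in a further alternative, chosen after seeing the data. Fits were tested on simulated data. The genes named are the isoform families and *Sdh* genes, the called members with the smallest p in each complex and direction (up to 3 per allele fit, up to 2 between tissues), the 5 with the smallest p for the tissue difference, the highest and lowest per length in each complex, and called genes of the other lists. The values of 1 member are not reported here by name; it is part of the sums and counts. Stretches of 43 bases were taken from annotated protein-coding transcripts, which can be longer than the counted gene, and were sought in the mm9 genome. Promoter windows came from RefSeq (GRCm38.p6).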

Additional observations from a re-analysis of the deposited data

Results flagged for a closer look

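In groups of 5 or 6 libraries, 258 groups of values (the sums by complex and the 36 named genes) were examined for 1 library far from the rest of its group by Dixon's criterion, and 24 had one; chance gives about 1 in 20 groups. Of the 24, 6 were values of hippocampal library Sample_1160 counted with the other cKO-/- hippocampi. That library was set apart because it stood out, so these 6 are a description and not to be read against chance: 27179.5 CPM over all members against 9005 to 9562, 9334.5 against 2527 to 2731 in complex I, 1186.02 against 716 to 792 in complex II, 2779.66 against 925 to 967 in complex III, 5544.55 against 1330 to 1548 in complex IV and 8334.79 against 3448 to 3585 in complex V.

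The hippocampus of cKO+/- mouse Sample_1433 was low in 5 values. Its complex I sum was 2419.73 CPM (the others 2642 to 2768) and its complex IV sum 1219.33 (1423 to 1523), with *Atp5d* at 147.64 (191 to 211), *Cox6a1* at 197.592 (238 to 261) and *Cox6b1* at 96.8901 (116 to 122). The cerebellum of cKO+/- mouse Sample_938 was low in complex I (2616.97 CPM, the others 2759 to 2829) and complex III (972.885, the others 1026 to 1053). In the cerebellum of cKO+/- mouse Sample_1120, *Atp5d* was high at 155.084 CPM (145 to 149) and *Cox6a2* was at 0.0 (1.53 to 2.09).

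Among the cKO-/- hippocampi, Sample_1385 was high in *Cox6b2* (2.45235 CPM, the others 0.631 to 0.933) and *Cox7a1* (1.98524, the others 0.884 to 1.20), Sample_1219 low in complex I (2527.26, the others 2676 to 2731) and Sample_1371 low in *Ndufa10* (124.744, the others 133 to 135). In cKO-/- cerebellum, *Cox8b* of Sample_936 was at 1.15881 CPM (the others 0.0459 to 0.304). Control libraries held the remaining values. In cerebellum these were the complex II sum of Sample_1129 (755.441 CPM, the others 863 to 926) and *Ndufb4* of Sample_1190 (5.84924, the others 3.48 to 4.33). In hippocampus they were *Ndufc2* of Sample_1172 (66.7536, the others 59.9 to 62.5) and *Sdhb* of Sample_1170 (128.95, the others 115 to 120).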

How the results depend on the processing

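No called member changed direction under any alternative. The members' median slope in cerebellum (0.03) did, at −0.00410 without Sample_1379, below 0 as well with the term for animal numbers, and −0.08 for cKO+/- against control, and that of the tissue difference ran from −0.03 to 0.04 without 1 animal. In cerebellum the count of 1 member called (*Cox6b2*) held under every alternative except genotype as a factor, cKO+/- against control (0), and was 1 without each animal in turn. In hippocampus the count of 4 was 2 with relative log expression size factors, 2 without a filter, 2 without the sex term, 2 for cKO-/- against control, 0 for cKO+/- against control, 0 with Sample_1160, 0 with the term for animal numbers, 7 with DESeq2 and, in an alternative chosen after seeing the data, 1 without the 4 libraries with choroid plexus markers. Without 1 animal it ranged from 0 (Sample_1385) to 7 (Sample_1219), and was 1 without Sample_1155, Sample_1172, Sample_1192, Sample_1371 or Sample_1379. It was 2 without Sample_933, Sample_936, Sample_938, Sample_1120, Sample_1170, Sample_1176 or Sample_1189. Between control tissues the count of 45 was 17 with Sample_1160 and 43 to 52 without 1 animal. With the animal as a replicate block it was 47 (9 higher and 38 lower), and the paired fit gave 0 members for the tissue difference, as did every other alternative. The causes of these changes were not tested. Low counts limit genes such as *Atp5g2*, *Cox6a2*, *Cox6b2* and *Cox7b2*, and 43-base reads limit genes with near copies.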
